A study of Arabidopsis thaliana with 124 samples.

Results

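The genes described here are the 10 CBL genes and the 26 CIPK genes of Arabidopsis thaliana, taken by name as CBL1 to CBL10 and CIPK1 to CIPK26. All 36 were found in the gene table, among 27444 protein-coding genes. For each gene the number of transcription factors with a peak summit inside it or within 2000 bp was counted in 42 ChIP-seq peak lists, with lists from hormone-treated and mock-treated seedlings kept apart. This count is called the number of factors at the gene. It is a measure of where factors were found on the chromosome and says nothing of whether the gene's transcript changed.

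CBL proteins (calcineurin B-like) are small calcium sensors that bind calcium through EF hands. Each binds a CIPK (CBL-interacting protein kinase, a family also called SnRK3), brings it to the plasma membrane or the vacuole membrane and relieves its self-inhibition. The active pair phosphorylates ion channels, transporters and other proteins, and so turns a calcium signal into a change in sodium, potassium, nitrate or proton transport. The best known pair is CBL4 with CIPK24, found as SOS3 and SOS2 in screens for salt sensitivity, which activates the sodium/proton exchanger SOS1. Several members are also known for altered responses to abscisic acid (ABA), a plant hormone made under drought and salt stress and in dormant seeds, when mutated.

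In the study, each of 21 transcription factors was tagged with the fluorescent protein YPet by recombineering, which adds the tag inside a large genomic clone of the gene, in the Col-0 accession. Seedlings spent 3 days in darkness and 4 h in 10 µM ABA or in ethanol (mock) before whole plants were fixed, and the tagged factor was precipitated with an antibody against GFP. By family they were RD26, ANAC032 and ANAC102 (NAC), GBF2, GBF3, ABF1, ABF3 and ABF4 (bZIP), HAT22, HB5, HB6 and HB7 (HD-ZIP), MYB44 and MYB3 (MYB), AT5G04760 (MYB-related), NFYC2 and NFYB2 (NF-Y), ZAT6 (C2H2 zinc finger), DREB2A (AP2/ERF), HSFA6A (heat shock factor) and FBH3 (bHLH). There were 3 libraries per factor and treatment for 19 factors and 2 for the other factors, ANAC102 and ZAT6, 122 in all, and 2 libraries of untagged Col-0 seedlings, both labelled as ABA-treated, were the control. The replicates of a factor and treatment were pooled into 1 list, so no value below has a replicate error. A factor seen in 1 list alone was above the authors' cutoff there. In the other list it had no summit in or within 2000 bp of the gene. It was either below the cutoff there or had its summit farther away. Read depth is unknown. ABA lists were longer than mock lists for 19 of 21 factors, and in whole seedlings the occupancy of few cells and weak occupancy of many cannot be told apart.

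Most CIPK genes had many factors nearby, and so did 5 of the 10 CBL genes. All 36 had at least 1 factor under ABA, against 87.3% of all protein-coding genes, and 35 had at least 1 under mock, against 82.1% of all genes. The exception under mock was CBL2. The number of factors per member ranged from 3 to 21 under ABA, with a median of 17 and a mean of 14.5 ± 5.39 (SD over 36 genes), and from 0 to 18 under mock, with a median of 11 and a mean of 10.6 ± 4.88. Over all genes the median was 9 under ABA and 5 under mock.

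At least 10 factors were present at 29 members under ABA (80.6%), against 48.1% of all genes, and at 22 members under mock (61.1%), against 30.3% of all genes. At least 15 were present at 24 members under ABA, against 28.6% of all genes, and at 8 under mock, against 9.48% of all genes. Of the kinases, 24 of 26 reached 10 factors under ABA and 18 did so under mock, with a median of 17 under ABA and 12 under mock. Of the sensors, 5 of 10 reached 10 under ABA (50%), near the 48.1% of all genes. Under mock 4 did so (40%), against 30.3% of all genes. The sensors had a median of 11.5 under ABA and 8 under mock. The sensors were split into CBL1, CBL3, CBL4, CBL8 and CBL9, each with 15 to 19 factors under ABA, and CBL2, CBL5, CBL6, CBL7 and CBL10, each with 3 to 8.

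**Figure D1:**
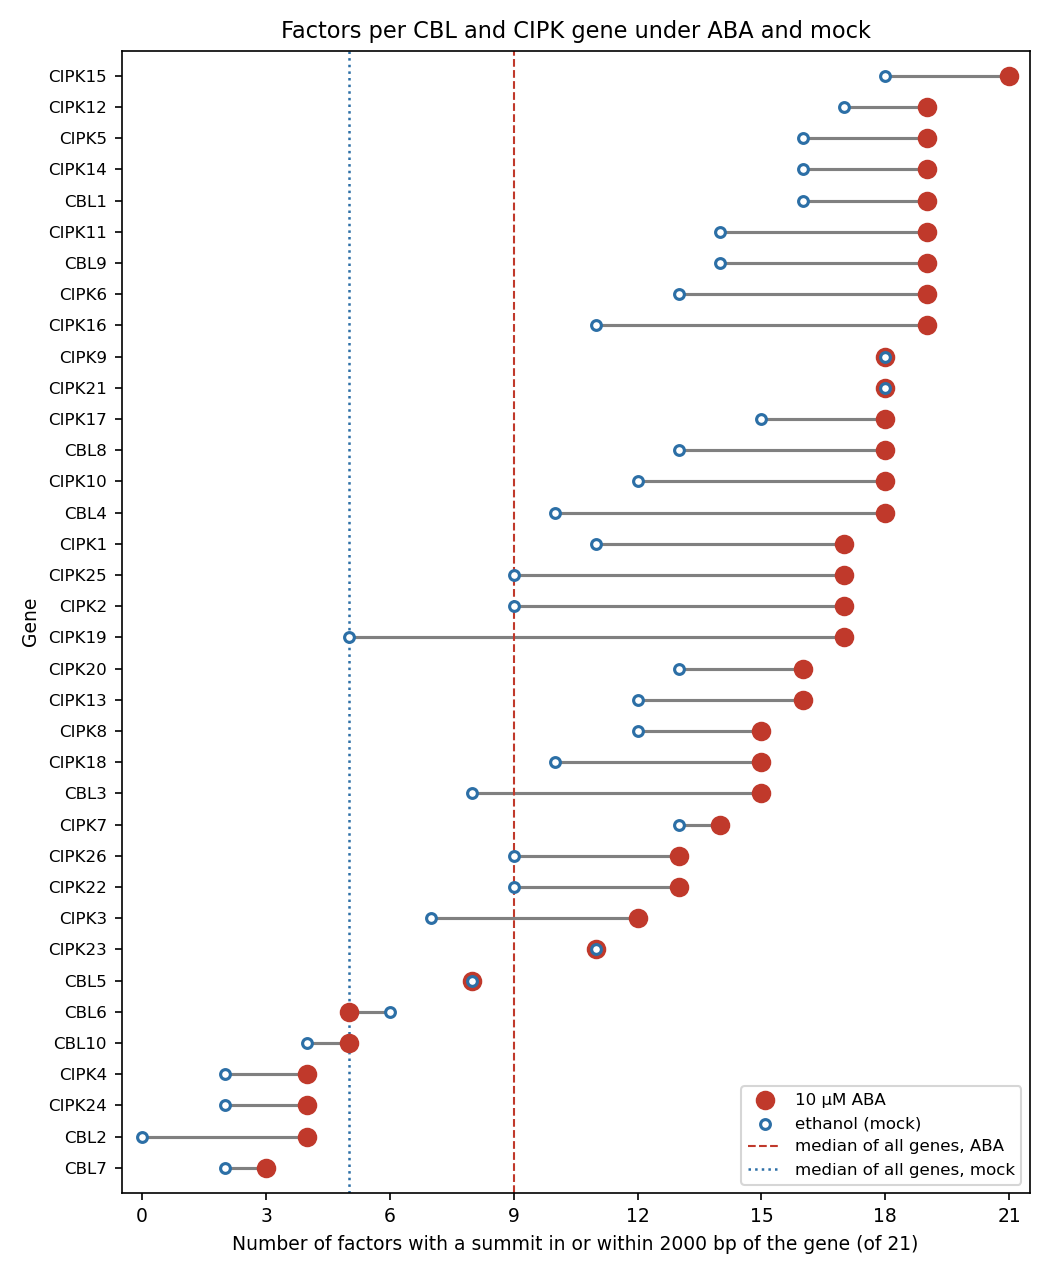
Number of factors with a summit in or within 2000 bp of each of the 36 genes, as filled circles for ABA and open circles for mock, from 1 pooled list per factor and treatment. A line joins the treatments of a gene, and the dashed and dotted lines are the medians of all protein-coding genes, 9 under ABA and 5 under mock. CIPK15 leads with 21 factors under ABA, CIPK19 has the longest line (17 under ABA, 5 under mock), and CBL6 is the gene with fewer factors under ABA.

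**Figure D2:**
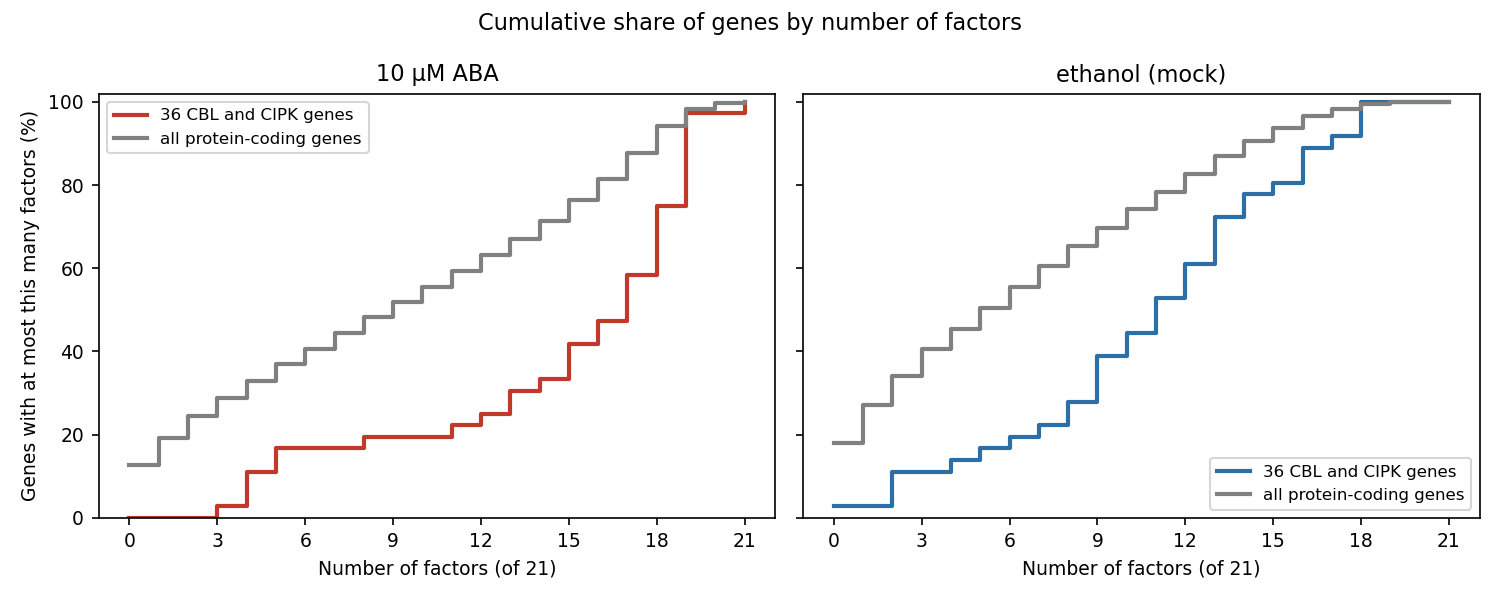
Cumulative share of genes (y axis, %) with at most a given number of factors (x axis), under ABA on the left and mock on the right. Coloured steps are the 36 CBL and CIPK genes and grey steps are all 27444 protein-coding genes. The coloured steps run to the right of the grey ones through most of the range, with medians of 17 against 9 factors under ABA and 11 against 5 under mock.

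These families were set beside the other large calcium-dependent kinase family and the core ABA kinases. The 34 CPK genes, whose kinases carry their own calcium-binding domain, had a median of 10 factors under ABA and 6 under mock. Of these, 17 reached 10 under ABA (50%), near the 48.1% of all genes. The 10 SNRK2 genes, which include the kinases that the ABA receptors set free, had a median of 16 under ABA and 12.5 under mock. Of these, 8 reached 10 under ABA (80%). Members lay in somewhat wider spaces than most genes. The summed gap to both neighbouring genes had a median of 2766 bp for the members, 3871 bp for the CIPK genes and 1526 bp for the CBL genes, against 1855 bp for all genes. All genes were ordered by that gap and cut into 5 equal classes. From the narrowest gaps to the widest, the share with at least 10 factors under ABA was 42.6%, 49.4%, 51.9%, 51.8% and 44.7%. In the class with the widest gaps, 10 of the 13 members reached 10. The part of this spacing in the members' counts was not tested.

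Under ABA, 31 of 36 members had more factors than under mock, against 75.5% of all genes. Only CBL6 had fewer, against 3.67% of all genes, and CBL5, CIPK9, CIPK21 and CIPK23 had as many. Counted by factor and gene, 154 placements were in the ABA list alone and 15 in the mock list alone. Of those that differed, 91.1% were in the ABA list, which is near the 91.0% over all genes. For 5 of the 154 and 4 of the 15, a peak in the factor's other list shared bases with the one counted. The summit of that other peak was not in or within 2000 bp of the gene. The median net change per member (factors under ABA minus factors under mock) was 3.5, against 2 for all genes and 3 for the 24128 genes with any factor. A net change of at least 5 was seen at 14 members, 4 sensors and 10 kinases, against 24.1% of all genes. No member had 5 or more factors fewer under ABA, as had 0.0364% of all genes.

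An exact two-sided sign test of the factors found in the ABA list alone against those in the mock list alone was run for 24128 genes with any factor, with Benjamini-Hochberg adjustment over all of them. No member and 0% of the genes tested passed at 0.05, and the lowest adjusted p of a member was 0.149, for CIPK19. At an unadjusted p under 0.05, 9 members had more factors under ABA, against 16.1% of the 24128 genes tested, and 0 members had fewer, against 0.0207% of the genes tested. These p-values describe the spread between factors, and factors at the same site are not independent of each other. When the ABA and mock lists of each factor were cut to equal length, the median net change was 0 for the members and 0 for all genes, and 16 members had more and 9 fewer factors under ABA, against 32.4% of all genes with more and 27.1% with fewer. The higher numbers under ABA and the longer ABA lists cannot be told apart for most members.

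**Figure D3:**
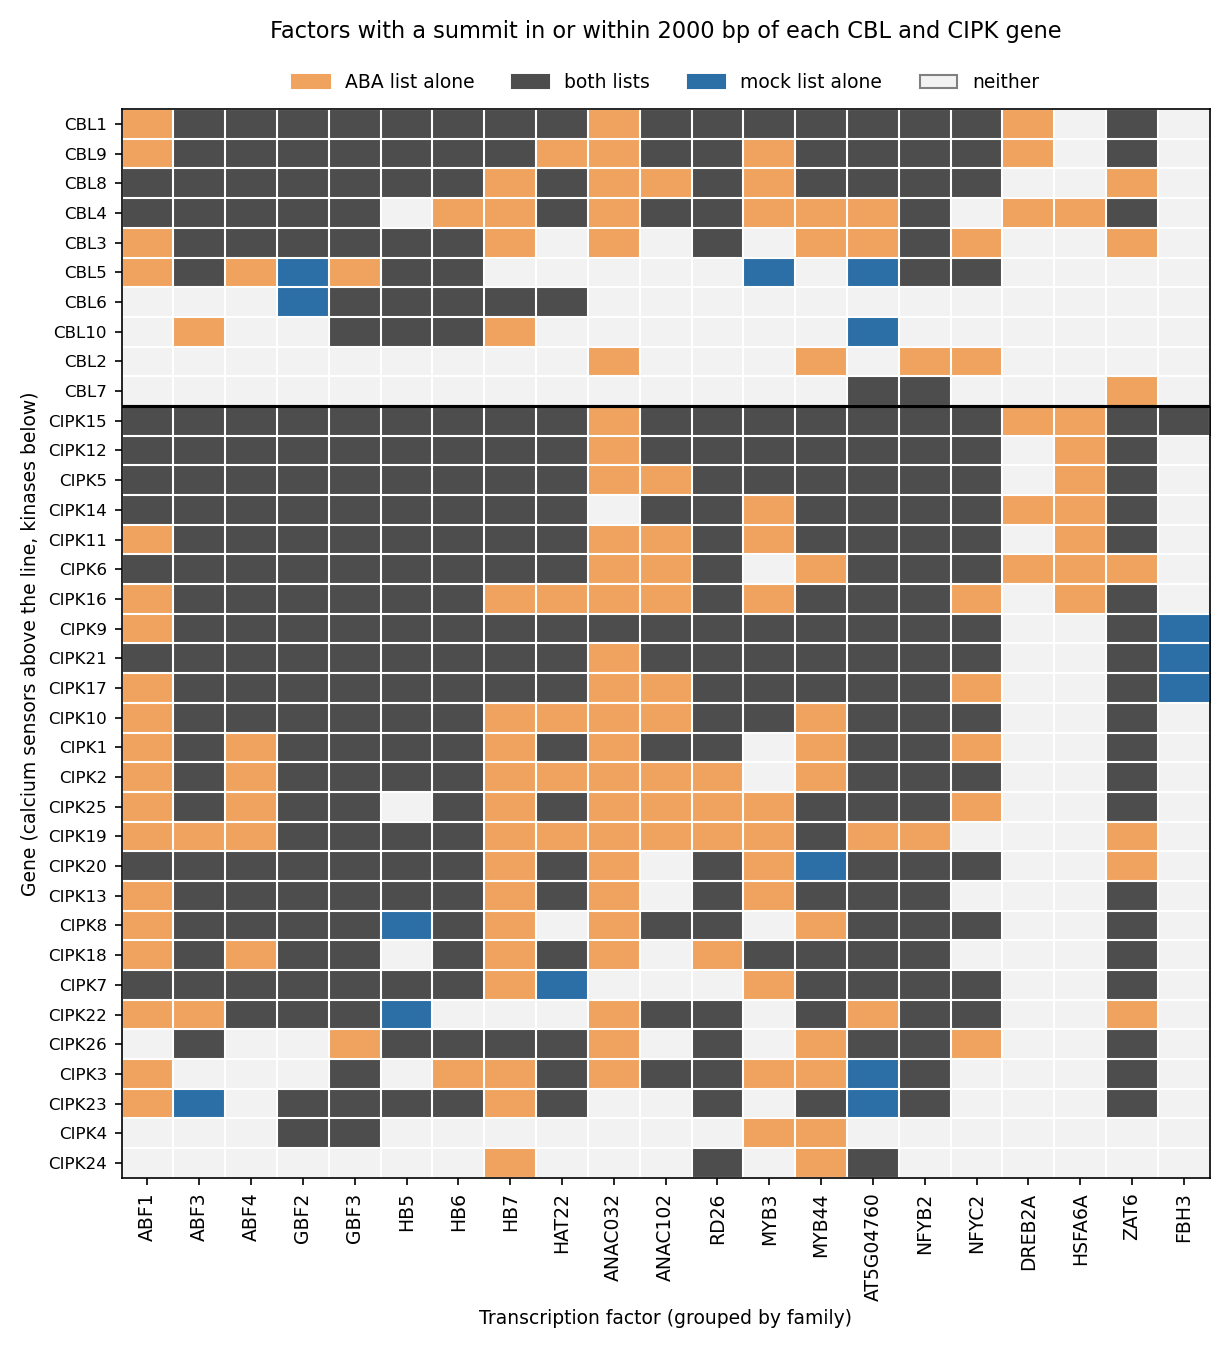
Each cell shows whether a factor (columns, by family) had a summit in or within 2000 bp of a gene (rows) in the ABA list alone (orange), in both lists (dark grey), in the mock list alone (blue) or in neither (light). Sensors are above the black line and kinases below, each ordered by factors under ABA. Orange is densest in the columns of ANAC032 (26 genes), ABF1 (19) and HB7 (18), while GBF2 and HB5 have no orange cell.

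By factor, the share of members with a summit was higher than that of all genes for all 21 factors under ABA and for 18 under mock. The exceptions under mock were ANAC032, DREB2A and HSFA6A. Apart from DREB2A, HSFA6A and FBH3, whose lists were short, each factor was present at 61.1% to 91.7% of the members under ABA. In what follows, a percentage in parentheses is the share of all genes that had the factor or factors in the same treatment. At least 1 of the 5 bZIP factors, which bind G-box-like sequences, was at 33 members under ABA (70.8% of all genes) and at 33 under mock (65.1% of all genes). All 5 were at 26 members under ABA (34% of all genes) and at 10 under mock (13.3% of all genes). GBF3 was at 33 members under ABA (65.8% of all genes) and at 31 under mock (61.8% of all genes). NFYB2, a subunit of the CCAAT-binding NF-Y complex, was at 32 under ABA (74% of all genes) and at 30 under mock (65.7% of all genes).

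The counts that differed most between treatments were those of ANAC032, ABF1 and HB7. ANAC032, a stress-responsive NAC factor, was at 27 members under ABA (39.3% of all genes) and at 1 under mock (4.58% of all genes), and that gene was CIPK9. ABF1, a bZIP factor of the ABA response, was at 29 members under ABA (41.9% of all genes) and at 10 under mock (14.6% of all genes). HB7, a homeodomain factor known as ABA-inducible, was at 31 members under ABA (61.1% of all genes) and at 13 under mock (19.1% of all genes). ANAC032, ABF1, HB7, MYB3, MYB44 and ANAC102 together made up 98 of the 154 placements in the ABA list alone, or 63.6%. They were picked as the 6 with the most such placements at the members, so the 49% they made up over all genes is no test of a difference. The list of ANAC032 held 7977 peaks under ABA and 801 under mock, and that of MYB44, with the smallest ratio of the 6, held 11479 under ABA and 7154 under mock. A longer ABA list was not particular to these 6, as that of ZAT6 held 11512 under ABA and 5146 under mock. All 3 NAC factors were at 21 members under ABA (22.6% of all genes) and at 1 under mock (4.11% of all genes).

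MYB44 was at 31 members under ABA (52% of all genes) and at 20 under mock (34% of all genes), and MYB3 at 22 under ABA (30.8% of all genes) and at 10 under mock (17.5% of all genes). ANAC102 was at 22 under ABA (25.3% of all genes) and at 12 under mock (15.5% of all genes). ZAT6, a zinc finger repressor of stress and nutrient responses, was at 30 under ABA (52.6% of all genes) and at 23 under mock (24% of all genes). NFYC2 was at 25 under ABA (43.4% of all genes) and at 18 under mock (32.4% of all genes), and ABF4 at 27 under ABA (43.4% of all genes) and at 21 under mock (33.4% of all genes). These factors had between 6 and 13 members in the ABA list alone.

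RD26, HAT22, ABF3, HB6 and AT5G04760 had 2 to 5 members in the ABA list alone. RD26 was at 29 members under ABA (55.9% of all genes) and at 25 under mock (37.5% of all genes), and HAT22 at 26 under ABA (43% of all genes) and at 22 under mock (34.9% of all genes). ABF3 was at 29 under ABA (54% of all genes) and at 27 under mock (45.1% of all genes), and HB6 at 31 under ABA (53% of all genes) and at 29 under mock (46% of all genes). AT5G04760 was at 29 members under ABA (53.6% of all genes) and at 29 under mock (45.5% of all genes), with 4 in the ABA list alone and 4 in the mock list alone.

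GBF2, HB5 and FBH3 had no member in the ABA list alone. GBF2 was at 28 members under ABA (50.1% of all genes) and at 30 under mock (48.7% of all genes). HB5 was at 26 under ABA (44.5% of all genes) and at 28 under mock (46% of all genes). FBH3, a bHLH factor with a longer list under mock, was at CIPK15 alone under ABA (1.24% of all genes) and at CIPK9, CIPK15, CIPK17 and CIPK21 under mock (6.5% of all genes). DREB2A, the drought and heat factor that binds DRE elements, was at 6 members under ABA (9.14% of all genes) and 0 under mock (0.0875% of all genes): CBL1, CBL4, CBL9, CIPK6, CIPK14 and CIPK15. HSFA6A, a heat shock factor, was at 8 members under ABA (11.1% of all genes) and 0 under mock (0.27% of all genes): CBL4, CIPK5, CIPK6, CIPK11, CIPK12, CIPK14, CIPK15 and CIPK16. CBL4, CIPK6, CIPK14 and CIPK15 had both of these rarer factors, and the share of all genes with both was not computed. CIPK14 and CIPK15 are neighbours, and the same HSFA6A summit, inside CIPK14, was counted at each of them.

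**Figure D4:**
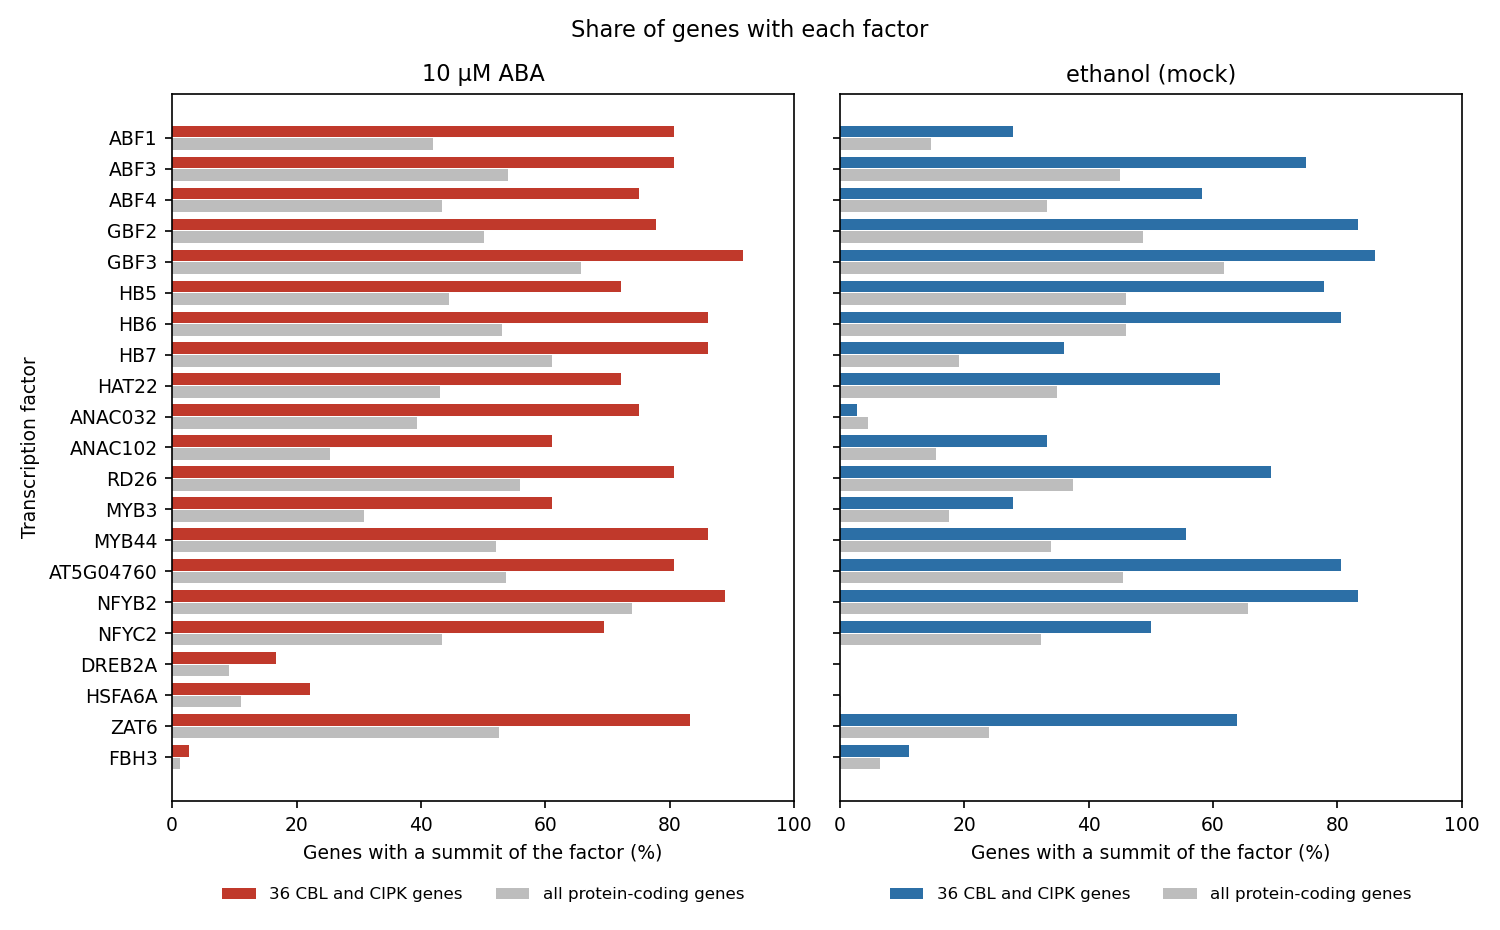
Share of genes (x axis, %) with a summit of each factor (rows) in or within 2000 bp, under ABA on the left and mock on the right. Coloured bars are the 36 CBL and CIPK genes and grey bars all 27444 protein-coding genes. The coloured bar is the longer one for all 21 factors under ABA, and ANAC032 has a bar of 75% under ABA and 2.78% under mock.

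Summits at the members lay in clusters. Summits of all factors and both treatments less than 150 bp apart in a chain were joined into sites, gene by gene. The 36 genes held 134 sites, with a median of 3.5 per gene and at most 8. A site shared by neighbouring members is counted at each of them in this total. At least 10 factors met at 34 sites under ABA and at 17 under mock, and 27 of 36 members had at least 1 such site under ABA, against 38.1% of all genes. By the most common position of their summits, 22 of these 34 sites were outside the gene and 12 inside it. Of all peak placements at members, 31.8% of 773 under ABA and 31.1% of 546 under mock had the summit inside the gene, against 20.1% under ABA and 20.7% under mock over all genes. The median gene length was 2354.5 bp for the members and 2078 bp for all genes, and the part of length in these shares was not tested. Of the 154 placements in the ABA list alone, 140 (90.9%) had a summit under 150 bp from a mock summit of another factor, against 85.4% over all genes. CBL2 had 0 of 4 such placements and CIPK19 had 9 of 12. Sides are given below as the low- or high-coordinate side of a gene, since strand was not used here, and coordinates are those of the peak lists on TAIR10.

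The sensors CBL1 and CBL9 are close relatives that sit at the plasma membrane and activate CIPK23 for potassium uptake, and CBL9 mutants are known for ABA hypersensitivity. They had the same 19 factors under ABA, all but HSFA6A and FBH3. CBL1 had 16 and CBL9 had 14 under mock. With lists of equal length the net change at CBL9 was 1. CBL1 added ABF1, ANAC032 and DREB2A, and CBL9 added these and HAT22 and MYB3. At CBL9, a site inside the gene (chr5:19130956-19131041) held 17 factors under ABA and 11 under mock. A further site 581 bp to the high-coordinate side (chr5:19132756-19133004) held 15 under ABA and 7 under mock. DREB2A had its CBL9 summit in that further site, where its peak had a fold enrichment of 3.76 and stood in the top 8.44% of its ABA list. Fold enrichment and −log10 p of single peaks are the authors' values throughout and serve to place a peak within its own list.

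CBL1 had a site of 13 factors under ABA and 10 under mock inside the gene (chr4:9817833-9817886). A site 805 bp to its low-coordinate side (chr4:9815303-9815595), with 13 under ABA and 9 under mock, was nearer to AT4G17610 than to CBL1. MYB44, a MYB factor of stomatal and ABA responses, had 1 of its highest peaks at CBL1: rank 61 of 11479 under ABA and rank 24 of 7154 under mock.

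CBL4 (SOS3), the sensor of the salt pathway, had 18 factors under ABA and 10 under mock. The exact sign test gave an unadjusted p of 0.00781 and a Benjamini-Hochberg adjusted p of 0.157. Of its 30 peak placements under ABA, 29 had the summit inside the gene. The main site (chr5:8241819-8242196) held 11 factors under ABA and 10 under mock, and a second one (chr5:8243307-8243472) held 8 under ABA and 4 under mock. A site at chr5:8238461-8238500 held 4 factors under ABA and 0 under mock. These were ABF3, HB7, ANAC032 and AT5G04760. Over the whole gene and its flanks, ANAC032, MYB3, MYB44, HB6, HB7, AT5G04760, DREB2A and HSFA6A were at CBL4 in the ABA list alone. With lists of equal length the net change at CBL4 was 4.

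CBL3, a sensor of the vacuole membrane, had 15 factors under ABA and 8 under mock. With lists of equal length the net change at CBL3 was 1. Of its ABA factors, 15 had a summit on the high-coordinate side, all in 1 narrow site 78 bp from the gene (chr4:13411226-13411328), which held 8 factors under mock. CBL2, its closest relative, had 4 factors under ABA (ANAC032, MYB44, NFYB2 and NFYC2) and 0 under mock. The CBL2 peaks had fold enrichments of 1.93 to 3.16 and stood between 78.5% and 91% down their lists, and none of them had CBL2 as the nearest gene. The 4 factors of CBL2 were also among the 15 of CBL3. ABF1, ABF3, ABF4, GBF2, GBF3 and 6 other factors were at CBL3 and not at CBL2 under ABA.

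CBL8 had 18 factors under ABA and 13 under mock. Its main site (chr1:23946168-23946458), 1561 bp to the low-coordinate side, held 16 factors under ABA and 12 under mock, and was nearer to AT1G64460. With a window of 1000 bp, or with each summit given to its nearest gene alone, the net change at CBL8 was -1. CBL5 had 8 factors under ABA and 8 under mock, of which 5 were the same. ABF1, ABF4 and GBF3 were in the ABA list alone, and GBF2, MYB3 and AT5G04760 in the mock list alone. All 8 ABA factors at CBL5 had their nearest gene in AT4G01410.

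CBL6 had 5 factors under ABA (GBF3 and all 4 HD-ZIP factors) and 6 under mock, where GBF2 was added. Its main site (chr4:9241286-9241389) was 906 bp away and nearer to SPK1, a guanine nucleotide exchange factor of cell shape. The HB5 peak there ranked 360 of 9558 under ABA. CBL7 had 3 factors under ABA and 2 under mock, and shared 1 summit with its neighbour CBL3. CBL10, a sensor that works with CIPK24 in salt tolerance of the shoot, had 5 factors under ABA and 4 under mock, all at 1 site inside the gene (chr4:15924355-15924426). The ABA peaks at CBL10 stood between 77.3% and 94.3% down their lists.

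Among the kinases, CIPK15 was the one member with all 21 factors under ABA, as had 71 genes, or 0.259% of all genes. It had 18 factors under mock, and DREB2A, HSFA6A and ANAC032 were added under ABA. The HSFA6A summit lay inside the neighbouring gene CIPK14, in a site about 1188 bp from CIPK15. CIPK15 (PKS3) is known for ABA hypersensitivity when lost and for binding the phosphatases ABI1 and ABI2. Its main site (chr5:308909-309185), 384 bp to the low-coordinate side, held 18 factors under ABA and 16 under mock. NFYB2 had its highest peak at any member there, with a fold enrichment of 11.51 and a −log10 p of 244.86, rank 105 of 18096 under ABA. The NFYC2 peak there ranked 26 of 8390 under ABA, and the GBF3 peak ranked 23 of 14247 under mock. All peaks of this site had their nearest gene in AT5G01800, so 8 of the 21 factors remained at CIPK15 when each summit was given to its nearest gene alone.

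CIPK14 lies next to CIPK15, and 27 summits were counted at both genes. CIPK14 had 19 factors under ABA and 16 under mock. A site between the genes (chr5:312269-312455), 882 bp from CIPK14 and 211 bp from CIPK15, held 6 factors under ABA and 9 under mock. CIPK14 also had a site inside the gene (chr5:315195-315273) with 12 factors under ABA and 14 under mock. Both of these sites held fewer factors under ABA than under mock, unlike the main site of CIPK15. A site counts summits, and a wide peak is counted at its summit alone. At CIPK14 an ABA peak of ABF1 was 6220 bp wide and an ABA peak of NFYC2 was 5570 bp wide. The part of peak width in these site counts was not tested. The values of CIPK14 and CIPK15 are in part the same peaks and do not count as separate cases.

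CIPK19 had the largest net change of the members, with 17 factors under ABA and 5 under mock. The exact sign test gave an unadjusted p of 0.000488 and a Benjamini-Hochberg adjusted p of 0.149, with 12 factors in the ABA list alone and 0 in the mock list alone. A net change of 12 or more was seen at 72 genes, 0.262% of all genes. Under mock CIPK19 had GBF2, GBF3, HB5, HB6 and MYB44. Its main site (chr5:18583300-18583742), about 1050 bp to the low-coordinate side, held 13 factors under ABA and 4 under mock. Within it, the summits of HB5 and HB6 lay at chr5:18583300 under ABA, and those of ABF1, ABF4, HAT22, MYB3, MYB44 and ZAT6 lay between 934 and 1004 bp from the gene.

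Nearer to CIPK19, about 430 bp from the gene, the 3 NAC factors had their summits within 17 bp of each other (chr5:18584243-18584259) under ABA, and no factor had a summit there under mock. ANAC032 had a fold enrichment of 3.54 and stood in the top 4.54% of its ABA list. ANAC102 had 3.24 (top 18.2%) and RD26 had 2.18 (top 37.9%). In contrast, GBF2 and GBF3 had a site inside CIPK19 (chr5:18585519-18585524) and another inside its neighbour CIPK20 (chr5:18587857-18587876), each with both factors under ABA and both under mock. With lists of equal length the net change at CIPK19 was 9, the largest of the members named for a change. The others among them lay between -1 and 5. With each summit given to its nearest gene alone the net change at CIPK19 was 12. With a window of 1000 bp it was 6, and the largest among the members named for a change was 8, at CBL4, CIPK16 and CIPK25.

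CIPK12, the close relative of CIPK19, with which it shares a known role in pollen tube growth, had 19 factors under ABA and 17 under mock. All 17 factors of CIPK19 under ABA were also at CIPK12. Under mock the counts of these relatives were 17 at CIPK12 and 5 at CIPK19. CIPK12 had 2 large sites, 1 on each side. The site at chr4:10291443-10291913 held 17 factors under ABA and 16 under mock, and the one at chr4:10288483-10288614 held 17 under ABA and 12 under mock. HAT22 ranked 25 of 9465 at CIPK12 under ABA.

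CIPK20 (PKS18), also tied to ABA sensitivity, is the neighbour of CIPK19 and had 16 factors under ABA and 13 under mock, with 8 summits counted at both genes. All 16 ABA factors had a summit in 1 site 869 bp to the high-coordinate side (chr5:18589624-18589696), which held 13 under mock. For all of these summits the nearest gene was DOG1, a main regulator of seed dormancy. CIPK19 and CIPK20 therefore lay side by side with a site of many factors in both treatments on the outer side of CIPK20 and a site mostly filled under ABA on the outer side of CIPK19.

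**Figure D5:**
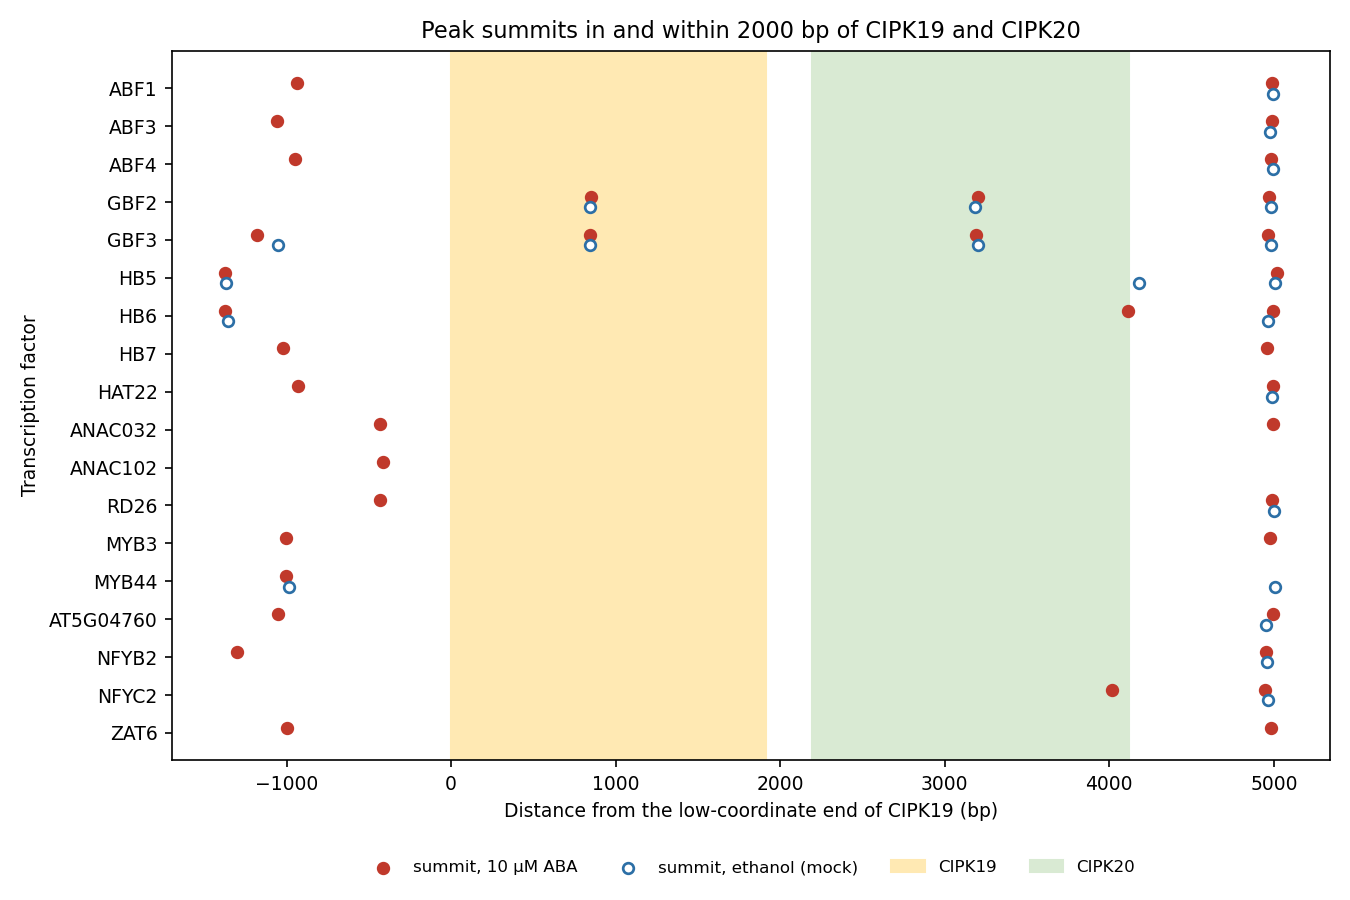
Peak summits by factor (rows) along the neighbours CIPK19 (yellow band) and CIPK20 (green band), as distance in bp from the low-coordinate end of CIPK19, filled for ABA and open for mock. Left of CIPK19, 13 factors have a summit under ABA and 4 under mock in the main site, and the 3 NAC factors stand nearer the gene under ABA alone. Right of CIPK20, the site next to DOG1 holds 16 factors under ABA and 13 under mock.

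CIPK2, CIPK16 and CIPK25 each had a net change of 8, with the same exact sign test values as CBL4 (unadjusted p 0.00781, Benjamini-Hochberg adjusted p 0.157). CIPK2 had 17 factors under ABA and 9 under mock, and 14 of its ABA factors met at a site (chr5:2199666-2200085) with 5 under mock that was nearer to AT5G07080. CIPK16, a kinase that can activate the potassium channel AKT1, had 19 under ABA and 11 under mock. Its main site, inside the gene (chr2:10671716-10671921), held 12 under ABA and 6 under mock. CIPK25 had 17 under ABA and 9 under mock.

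At CIPK25 the site on the high-coordinate side (chr5:8659796-8660093) held 16 factors under ABA and 8 under mock, and the one on the low-coordinate side (chr5:8656683-8656764) held 7 under ABA and 3 under mock. The NFYB2 peak on the low-coordinate side of CIPK25 had a fold enrichment of 9.45 in the ABA list (top 8.77%), and the mock peak there had 3.08 (top 58%). All peaks counted at CIPK25, under ABA and under mock, had it as the nearest gene. With lists of equal length the net change was 5 at CIPK25, 4 at CIPK2 and 1 at CIPK16. With a window of 1000 bp it was 2 at CIPK2 and 8 at CIPK16 and at CIPK25. With each summit given to its nearest gene alone it was 1 at CIPK2 and 8 at CIPK16 and at CIPK25.

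CIPK1, CIPK6 and CIPK10 each had a net change of 6. CIPK1, a partner of CBL1 and CBL9 in osmotic and ABA responses, had 17 factors under ABA and 11 under mock, with 16 under ABA and 9 under mock at a site inside the gene (chr3:5991444-5991773). With lists of equal length its net change was -1. A site 1481 bp from CIPK1 (chr3:5994457-5994513) held 5 factors under ABA and 0 under mock. CIPK6, which brings the potassium channel AKT2 to the plasma membrane with CBL4, had 19 factors under ABA and 13 under mock. Its site 110 bp from the gene (chr4:15066879-15066954) held 15 under ABA and 13 under mock.

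The other side of CIPK6 had a site (chr4:15068928-15069588) with 13 factors under ABA and 3 under mock. The treatments thus differed little at 1 flank of CIPK6 and by 10 factors at the other. At the latter, 7 of the ABA factors had a summit nearer to AT4G30970. With lists of equal length the net change at CIPK6 was 3. ABF1 at CIPK6 ranked 40 of 8512 in its ABA list. CIPK10 had 18 under ABA and 12 under mock, of which 15 under ABA and 8 under mock met at a site nearer to AT5G58370 (chr5:23595722-23596071).

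CIPK3, CIPK11 and CIPK18 each had a net change of 5. CIPK11 (PKS5), which restrains the plasma membrane proton pump AHA2, had 19 factors under ABA and 14 under mock, all 19 and all 14 at 1 site 608 bp from the gene (chr2:12939186-12939660). This was the site with the most factors under ABA at any member. CIPK3, a kinase of ABA and cold responses that works with CBL9, had 12 under ABA and 7 under mock, 9 of the ABA factors being nearest to FUS12. The net change at CIPK3 was 0 when each summit was given to its nearest gene alone, and 0 with lists of equal length. At CIPK11 it was 1 and at CIPK18 it was 2 with lists of equal length. CIPK18 had 15 under ABA and 10 under mock, and its site 64 bp from the gene (chr1:10214486-10214669) held 15 under ABA and 9 under mock.

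CIPK9, CIPK15 and CIPK21 had 18 factors under mock, the most of any member, as had 458 genes or 1.67% of all genes with at least 18. CIPK9, which acts in tolerance of low potassium, had 18 under ABA as well, with ABF1 in the ABA list alone and FBH3 in the mock list alone. Its main site (chr1:68395-68671), 823 bp from the gene, held 16 factors under ABA and 16 under mock. ANAC032 at CIPK9 stood in the top 1.33% of its ABA list, with a fold enrichment of 3.77, and in the top 47.8% of its mock list, with 2.46. CIPK21, a kinase of osmotic and salt responses that works with CBL2 and CBL3 at the vacuole, had 18 under ABA and 18 under mock. In either treatment all 18 were at 1 site (chr5:23343244-23343557). All 18 ABA factors had their summit there inside the gene, while the FBH3 mock summit lay outside it, on the high-coordinate side.

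CIPK17 had 18 factors under ABA and 15 under mock. A site inside the gene (chr1:17816456-17816578) held 17 under ABA and 14 under mock. HD-ZIP peaks there were among the highest of their lists, with HAT22 at rank 12 of 9465 and HB7 at rank 26 of 13565 under ABA. HAT22 ranked 61 of 7750 there under mock. CIPK5 had 19 factors under ABA and 16 under mock. A site inside the gene (chr5:3445168-3445369) held 13 under ABA and 9 under mock. A site 686 bp away (chr5:3447906-3448030) held 11 under ABA and 11 under mock, and the 11 ABA factors there had summits nearer to ASG2.

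CIPK8, a kinase of the nitrate response, had 15 factors under ABA and 12 under mock. Its site at 1 end of the gene (chr4:12616950-12617171) held 15 under ABA and 9 under mock. A site beyond the other end (chr4:12620824-12621036) held 7 under ABA and 0 under mock, the largest site at any member with no factor under mock. CIPK13 had 16 under ABA and 12 under mock, with a site 187 bp from the gene (chr2:14432474-14432849) that held 14 under ABA and 10 under mock.

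CIPK23 and CIPK24 are the best studied kinases of the family and had fewer factors than most. CIPK23, which activates the potassium channel AKT1 and the nitrate transporter NRT1.1, had 11 factors under ABA and 11 under mock. By summit, ABF1 and HB7 were in the ABA list alone, and ABF3 and AT5G04760 in the mock list alone. For ABF3 and for AT5G04760, the mock peak shared bases with a peak in that factor's ABA list. The summit of that ABA peak was not in or within 2000 bp of CIPK23. Absence of ABF3 and AT5G04760 from CIPK23 under ABA was therefore not shown. The CIPK23 relative CIPK9 had all 11 of the ABA factors of CIPK23 and 7 more. CIPK24 (SOS2), the kinase of the salt pathway, had 4 under ABA (HB7, RD26, MYB44 and AT5G04760) and 2 under mock (RD26 and AT5G04760). These met at 1 site inside the gene (chr5:13634458-13634554), with fold enrichments of 1.96 to 2.27 under ABA.

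In the salt pathway the numbers were uneven: the sensor gene CBL4 had 18 factors under ABA and 10 under mock, the sensor gene CBL10 had 5 under ABA and 4 under mock, the kinase gene CIPK24 had 4 under ABA and 2 under mock, and the exchanger gene SOS1 had 1 under ABA and 1 under mock. CIPK4, with 4 under ABA and 2 under mock, was the other kinase with fewer than 10 under ABA. CIPK7, CIPK22 and CIPK26 had 13 or 14 under ABA and 9 to 13 under mock. CIPK26 is known to bind the oxidase RBOHF and to be degraded through the ubiquitin ligase KEG.

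Of 630 pairs of members, 18 had exactly the same factors under ABA. The share of such pairs over all genes was not computed, so this count is not a result about the families. Under ABA 6.27% of all genes had 17 factors, 6.54% had 18 and 4.06% had 19. CBL8, CIPK9, CIPK10, CIPK17 and CIPK21 shared a set of 18, all but DREB2A, HSFA6A and FBH3. CIPK5, CIPK11, CIPK12 and CIPK16 shared these 18 and HSFA6A. CBL1 and CBL9 shared the 18 and DREB2A, and CIPK1 and CIPK2 shared a set of 17. Within pairs of near relatives, counts under ABA were close at CIPK2 and CIPK10 (17 and 18) and at CIPK13 and CIPK18 (16 and 15). They lay far apart at CIPK4 and CIPK7 (4 and 14), CBL2 and CBL3 (4 and 15) and CIPK8 and CIPK24 (15 and 4). These pairs were chosen with the values known.

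Genes for 25 partners and targets of CBL and CIPK proteins had a median of 17 factors under ABA and 13 under mock. Under ABA 10 or more were present at 20 of them (80%), against 48.1% of all genes. Under mock this held for 16 (64%), against 30.3% of all genes. Of the 25, 19 had more factors under ABA and 1, the guard cell anion channel gene SLAC1, had fewer, with 4 under ABA and 5 under mock. As shares these were 76% and 4% of the partners, near the 75.5% and 3.67% of all genes. None passed the exact sign test after Benjamini-Hochberg adjustment. ERF7, which encodes a repressor bound by CIPK15, came closest, with 18 under ABA and 9 under mock (unadjusted p 0.00391, adjusted p 0.149).

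Among the 12 transporter genes the range under ABA was 1 to 18. AKT1 had 16 under ABA and 10 under mock, and the iron transporter gene IRT1 had 16 under ABA and 9 under mock. AKT2, NRT1.1, AHA2 and the anion channel gene SLAH3 had 18 each under ABA, and under mock 18 at AKT2, 16 at NRT1.1, 16 at AHA2 and 15 at SLAH3. The 4 phosphatase genes, which encode clade A protein phosphatases of the ABA pathway, all had 17 to 19 under ABA. ABI1 had 18 under ABA and 18 under mock, ABI2 had 19 under ABA and 16 under mock, and HAI2 had 19 under ABA and 15 under mock.

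RBOHF, the oxidase gene, had 20 under ABA and 16 under mock. GI, whose protein holds back CIPK24, had 20 under ABA and 18 under mock, and BIN2, a kinase of brassinosteroid signalling, had 19 under ABA and 18 under mock. ABR1, a repressor of ABA responses, had 11 under ABA and 4 under mock. GRIK2, which encodes a kinase upstream of the SnRK1 and SOS2 kinases, had 0 in either treatment. Its relative GRIK1 had 11 under ABA and 10 under mock.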

How the data were processed

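The authors deposited 42 narrowPeak lists, 1 for each factor in each treatment. Per the submitters' processing notes, TAIR10 was the build and MACS2 2.0.10 and Bowtie 0.12.7 were used, at steps not given in the sources used here. In the deposited lists, names of peaks show that the authors pooled the replicates and kept peaks at a −log10 p of 16. The lists of GBF3 under ABA (17.98), NFYB2 under ABA (19.25) and NFYB2 under mock (17.58) start higher, so these factors' treatments have different cutoffs. Each peak's fold enrichment (a ratio) and −log10 p are the authors' values and served to rank or filter peaks within a list. Summit offsets were used as deposited by the authors, other than their q column, which holds -1 throughout. Without read counts in the lists, depth is unknown, and no interval is given. The Col-0 control libraries, both labelled ABA, were not analysed by themselves, and the lists called against them are not given in the sources used here.

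A summit was counted for every protein-coding gene it lay in or within 2000 bp of. Gene names and neighbourhoods come from an NCBI table of assembly TAIR10.1, in which all 61 gene codes sought were found; it has no strand or exons, and no coordinate from it is printed. Shifted summits checked the match of the positions: 33.9% lay in genes without a shift, 34.9% and 35% after shifts of 50 bp down and up, and 37.5% and 37.4% after 100 bp. Factors were counted per gene and compared with an exact two-sided sign test over the 21 factors, each with its treatments as a pair, with Benjamini-Hochberg adjustment over all genes with a factor. The test was tried on simulated data with independent factors and, for unchanged genes, equal rates in both treatments. Real factors share sites and most ABA lists are longer, so that trial cannot give the error rate of the test here. The p-values of the sign test measure the spread between factors, not replicates, and separate cultures for replicates are not stated in the labels. Genes described with values had at least 15 factors under ABA, a net change of at least 5 in either direction, at most 2 factors under ABA, or summits shared with another member; partner genes had such a net change, at least 18 or at most 1 factor under ABA. CBL2, CBL5, CBL6, CBL10, CIPK4, CIPK7, CIPK22, CIPK23, CIPK24, CIPK26, SLAC1, GRIK1 and the sites named were chosen after their values were seen. The members, lists and tests were chosen with earlier results of these data known. The promoter sequences planned were not used here. Computing used Python 3.11.15 with numpy 2.4.6, pandas 2.3.3, scipy 1.17.1 and matplotlib 3.10.9.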

Additional observations from a re-analysis of the deposited data

How the results depend on the processing

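The counts of members by number of factors, the counts by direction, the median net change and the sign test were recomputed with a window of 1000 bp, with the nearest gene alone, with peaks at a −log10 p of 32 or more, with ABA and mock lists of equal length, with peak overlap in place of the summit, without DREB2A, HSFA6A and FBH3, and without each factor in turn; the net changes of the 14 members named for one were recomputed under all but the last. Site, family, factor and partner counts were not recomputed. Members with at least 10 factors under ABA numbered 23 to 30 under the first 6 of these, against 29, while the share of all genes ran from 26.4% to 54%, against 48.1%. Under mock they numbered 10 at a −log10 p of 32 (10.9% of all genes), against 22 (30.3% of all genes). The median net change of 3.5 became 2 with the nearest gene alone and 0 with lists of equal length. The number of members with more factors under ABA was 16 with lists of equal length, against 31. The number with fewer was 2 at 1000 bp, 2 with the nearest gene alone, 0 at a −log10 p of 32 and 9 with lists of equal length, against 1. The net change was -1 at CBL8 at 1000 bp and -1 with the nearest gene alone, and -1 at CIPK1 with lists of equal length; of the 14 members named for a net change, those were the reversals. Lists of equal length hold fewer ABA peaks by construction; for the rest the cause was not tested. No member passed the adjusted sign test under any of these settings.

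Leaving out 1 factor at a time gave 29 to 29 members with at least 10 factors under ABA, 20 to 22 under mock, a median net change of 3 to 4, 29 to 33 members with more and 0 to 4 with fewer factors under ABA, and 0 to 0 past the adjusted test. No paired analysis was possible because the replicates of a factor and treatment were pooled into 1 list, so pairing was by factor alone, in the sign test, and no replicate could be left out. Unknown depth and list length limit every comparison of ABA with mock here.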
